A study of Mus musculus with 18 samples.

Results

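Myotubes that had received Setd2 siRNA 1 were compared with myotubes that had received a control siRNA, 3 libraries against 3, so 6 of the 18 samples of the series, chosen by treatment and stage as their labels give them. The cells were C2C12, an established line of mouse muscle precursors whose single-nucleus myoblasts proliferate and, on differentiation, fuse into multinucleated myotubes. The series also holds myotubes with a second Setd2 siRNA and the same 3 treatments in undifferentiated myoblasts, and it addresses what loss of SETD2 does to the RNA of muscle cells before and after differentiation. PolyA RNA of every group was collected straight after the cells had been stretched, so stretching is shared by treated and control cells and no unstretched cells were analysed here. All libraries come from a single cell line, the siRNA sequences are not stated in the sources, and the labels say biological replicate without naming separate cultures, so p-values measure the spread between these libraries.

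Setd2 encodes the enzyme that trimethylates lysine 36 of histone H3. SETD2 travels with elongating RNA polymerase II, and the mark it leaves over gene bodies is read by proteins that act in splicing, DNA repair, DNA methylation and the silencing of cryptic start sites. An siRNA guides the RNA interference machinery to a matching transcript, which is cut and degraded, so an siRNA lowers a transcript without removing the gene. In muscle, differentiation couples exit from the cell cycle to the expression of myogenin, MEF2 factors and the contractile proteins.

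Library names begin with C13 or D1, and the meaning of these prefixes is not given. Control replicates 1 and 3 and siRNA 1 replicate 1 carry C13, and control replicate 2 and siRNA 1 replicates 2 and 3 carry D1. Values are given in the order of replicates 1, 2 and 3, so the prefix of each can be read off. The prefix term itself was called in 1367 genes (8.49% of those tested), and it was part of the model for every test. The name of control replicate 3 holds NT_2 where the other controls hold NT_1, and whether it received another control siRNA is not given. Depth ran from 43.5 to 66.6 megareads in the controls and from 51.2 to 56.4 megareads with siRNA 1. Sequence of ribosomal RNA type took 1.27% to 2.30% of the counts in the controls and 1.5% to 2.88% with siRNA 1. Levels are in CPM, estimated counts per megaread after scaling between libraries. Strandedness of the libraries is not stated, and reads from a gene and from one that overlaps it, antisense genes included, cannot be told apart.

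The cells carried the RNA of myotubes. The 10 myotube markers (Myog, Mef2c, Ckm, Acta1, Myh3, Myh1, Tnnt3, Mymk, Ryr1 and Cacna1s) summed to between 17336 and 19141 CPM in the controls and to between 20566 and 20938 CPM with siRNA 1. The 6 markers of dividing myoblasts (Mki67, Top2a, Ccnb1, Ccna2, Myf5 and Cdk1) summed to between 364 and 389.5 CPM in the controls and to between 254.9 and 269.6 CPM with siRNA 1, a small sum beside that of the myotube markers. Leukocyte markers summed to between 0.695 and 0.802 CPM over all 6 libraries and neuron or Schwann cell markers to between 0.133 and 0.278 CPM. The adipocyte gene Plin1 and the cartilage and bone genes Acan and Ibsp were at 0 counts in all 6 libraries, which for counting error alone allows up to 3 counts a library. Other markers of these cell types were detected. Cebpa of the adipocyte markers was at 6.46 to 8.18 CPM and was not called. The 4 tested genes of a longer adipocyte list summed to 33.6, 30.1 and 31.8 CPM in the controls. With siRNA 1 they summed to 41.2, 43.5 and 44.2 CPM, and 2 rose and 0 fell. Among all genes tested 14.6% rose and 12.8% fell. The bone gene Sp7 was at 0.495 to 0.571 CPM in the controls and 0.115 to 0.232 CPM with siRNA 1, a called fall (log2 fold change -1.61). Bglap and Col2a1 were too low to be tested.

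Setd2 (chr9:110532597-110618633, plus strand, mm10) was lower with siRNA 1 in every library. It stood at 105.1, 104.6 and 99.3 CPM in the controls and at 58.1, 37.8 and 38.1 CPM with siRNA 1 (log2 fold change -1.15, SE 0.14, adjusted p = 0.00247). The groups did not overlap, and the C13 library kept more Setd2 RNA than the D1 libraries. The log2 fold changes were -0.81 within C13 and -1.46 within D1. The table lists 10 Setd2 transcripts, and the full-length coding transcript of 21 exons held 92.5%, 92.7% and 92.1% of the gene's counts in the controls. Its TPM, a length-corrected share of the library, went from 22.4, 22.4 and 21.4 in the controls to 11.2, 7.07 and 7.14 with siRNA 1. A shorter coding transcript of 10 exons was at 3.14, 3.56 and 3.48 TPM in the controls and 2.81, 2.13 and 2.13 TPM with siRNA 1. A transcript of 5 exons annotated for nonsense-mediated decay was at 1.70, 1.32 and 1.25 TPM against 1.53, 1.61 and 1.67 TPM, so these groups overlapped. It held only 34.1 to 50.7 estimated counts a library. Whether the fall was shared evenly by the transcripts cannot be told from these estimates. No test was run on single transcripts, because the uncertainty of their quantification was not used here.

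Of 16097 genes tested, 4405 were called at an adjusted p under 0.05 (27.4%), with 2344 that rose (14.6%) and 2061 that fell (12.8%). Most changes were small. A rise of at least 1.5-fold was called in 357 genes and a fall of at least 1.5-fold in 325, and at 2-fold these numbers were 145 and 96. Of the called genes, 2136 rises and 1858 falls had groups that did not overlap. Over all genes tested, the 3 siRNA 1 libraries lay above the 3 controls in 19.7% and below them in 19.5%. The split between rises and falls depended on the scale: 53.2% of the called genes rose with counts, and 33.3% (1048 of 3145) with limma on log2(TPM + 1), where the median gene moved by -0.041. Without control replicate 2, the only D1 control, 2591 genes were called, of which 2457 were called in the same direction as with all libraries.

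**Figure D1:**
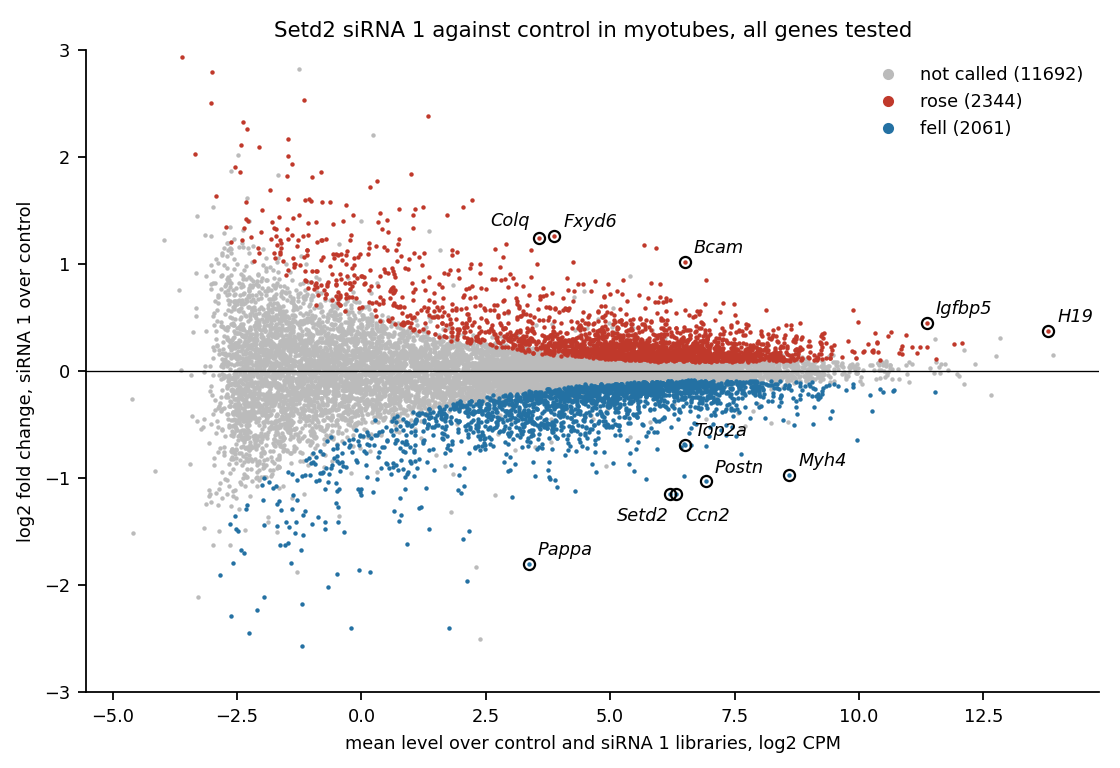
Each point is 1 of the 16097 genes tested, with the mean level over the 6 libraries on the horizontal axis (log2 CPM) and the log2 fold change of siRNA 1 over control in myotubes on the vertical axis. Called rises (2344) are red, called falls (2061) blue, and 6 genes lie beyond the plotted range of 3. Most called changes are under 2-fold. Circles mark genes described in the text and H19, which the text does not describe.

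Almost all called genes named below against control had to have groups that do not overlap and the same sign within both prefixes. Their separation is thus not further support. Pappa encodes the secreted protease that frees insulin-like growth factors by cutting their binding proteins. It fell most among the well-expressed protein-coding genes that met these conditions. Its level was 14.8, 17.6 and 15.6 CPM in the controls and 5.16, 4.49 and 3.92 CPM with siRNA 1 (log2 fold change -1.80, SE 0.13, adjusted p = 1.04e-05), and the groups were well apart. Ccn2, the matricellular protein also called connective tissue growth factor, went from 104, 109 and 123 CPM to 56.3, 47.8 and 43.8 CPM (log2 fold change -1.15, SE 0.09, adjusted p = 7.28e-05). Every siRNA 1 library lay well below every control. Postn, which encodes the matrix protein periostin, was at 189, 122 and 204 CPM in the controls and 104, 56.1 and 54.6 CPM with siRNA 1. Its C13 libraries were higher than its D1 libraries in both groups, so the fall was read within prefixes, where the log2 fold changes were -0.92 within C13 and -1.14 within D1 (log2 fold change -1.03, SE 0.04, adjusted p = 6.69e-09 with the prefix in the model).

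Inhba, which encodes the subunit of activin A, was at 16.9, 19.7 and 18.3 CPM in the controls and at 10.1, 8.96 and 8.52 CPM with siRNA 1 (log2 fold change -1.01, SE 0.08, adjusted p = 7.83e-07). Id3, an inhibitor of the basic helix-loop-helix factors that drive myogenesis, stood at 15.4, 13.9 and 15.9 CPM against 7.75, 6.90 and 7.15 CPM (log2 fold change -0.98, SE 0.07, adjusted p = 2.26e-07). For both genes every siRNA 1 library was below every control. The taste receptor subunit gene Tas1r1 fell from 25.2, 29.5 and 25.3 CPM to 13.01, 13.4 and 11.7 CPM (log2 fold change -1.12, SE 0.07, adjusted p = 1.6e-07). Other falls among the leading 12 included Ntn5, a secreted netrin (log2 fold change -1.17), Cdh18, a cadherin (-1.01), Aldh1l2, a mitochondrial enzyme of folate metabolism (-1.01), Kcnj12, an inward rectifier potassium channel (-0.99), and Setd2 itself.

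Among the largest rises, Fxyd6 and Atp1b2 encode a regulator and a beta subunit of the sodium-potassium pump. Fxyd6 was at 8.63, 8.80 and 8.05 CPM in the controls and at 20.3, 20.7 and 21.7 CPM with siRNA 1 (log2 fold change 1.27, SE 0.06, adjusted p = 6.6e-09), and Atp1b2 went from 42.8, 24.2 and 36.1 CPM to 71.5, 66.1 and 68.0 CPM (log2 fold change 1.18, SE 0.15, adjusted p = 0.00324). Colq encodes the collagen tail that anchors acetylcholinesterase at the neuromuscular junction, and its level was 8.75, 5.77 and 7.95 CPM against 16.3, 15.9 and 16.8 CPM (log2 fold change 1.25, SE 0.11, adjusted p = 2.43e-05). In each of these genes the lowest siRNA 1 library was above the highest control. Bcam, a laminin receptor of the cell surface, rose from 64.4, 54.2 and 58.6 CPM to 110.2, 128 and 127 CPM (log2 fold change 1.02, SE 0.08, adjusted p = 5.65e-05), with the C13 library of siRNA 1 the lowest of its group.

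Mybpc1, the slow isoform of myosin-binding protein C, was at 47.7, 31.9 and 42.7 CPM in the controls and at 87.1, 73.1 and 79.4 CPM with siRNA 1 (log2 fold change 1.15, SE 0.13, adjusted p = 0.00141). Cmya5, which encodes myospryn of the costamere, was at 9.87, 5.24 and 7.53 CPM against 17.2, 10.7 and 13.6 CPM (log2 fold change 1.13, SE 0.14, adjusted p = 0.000569). In both genes control replicate 2 was the lowest library, and the groups did not overlap. The remaining rises among the leading 12 were Nup210, a nucleoporin that appears in muscle differentiation (log2 fold change 1.14), Crym, a thyroid hormone binding protein (1.07), Asb2, a ubiquitin ligase subunit that targets filamins (1.02), Galnt5, an enzyme of O-glycosylation (1.19), Slc26a7, an anion exchanger (1.01), and Adamts8, a secreted metalloprotease (1.00).

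**Figure D2:**
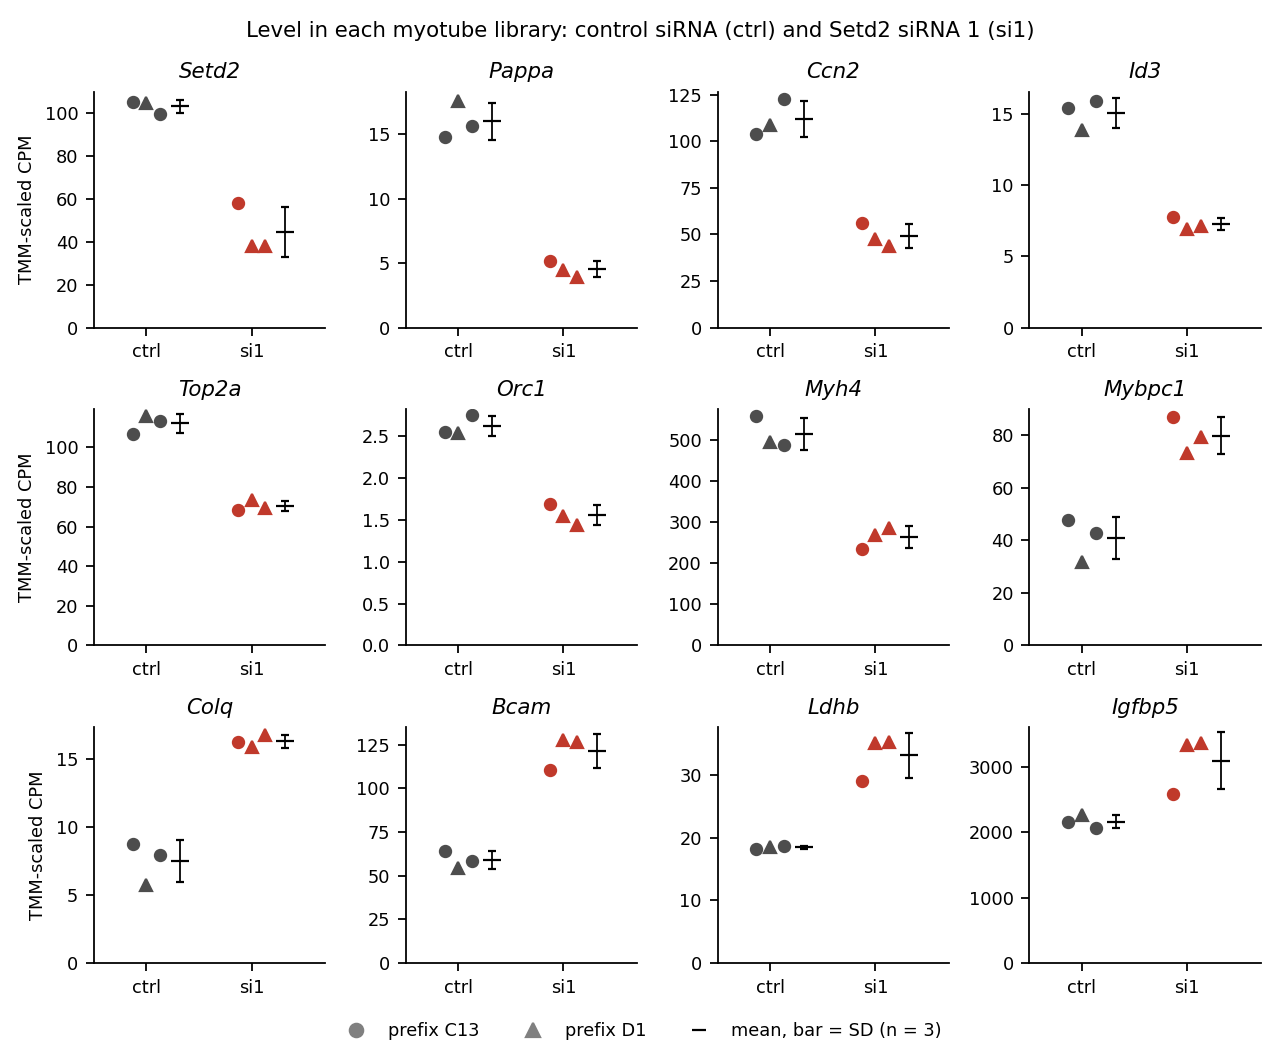
Level of 12 genes (TMM-scaled CPM, vertical axes from 0) in the 3 control and 3 siRNA 1 myotube libraries, with circles for prefix C13, triangles for prefix D1 and the mean with its SD beside each group. In all 12 genes the groups do not overlap, which was a condition for choosing all of them but Setd2. Setd2 is at 58.1 CPM in the C13 library of siRNA 1 and at 37.8 and 38.1 CPM in the D1 libraries.

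Genes of mitosis fell as a whole list. All 52 tested genes of the list fell, against 12.8% of all genes tested, with log2 fold changes between -0.73 and -0.27, a median of -0.51, and 0.00 as the median over all genes. In all 52 the 3 siRNA 1 libraries lay below the 3 controls, where 19.5% of all genes did. The summed level of the list was 1355, 1419.9 and 1436 CPM in the controls and 976, 1033 and 985 CPM with siRNA 1. The median was -0.53 within C13 and -0.51 within D1. Leaving out single libraries gave 49 to 52 falls. In bulk RNA, fewer cells of a kind and less RNA per cell cannot be told apart, and the dividing myoblast markers fell with this list: 5 of 6 were called, Myf5 was not, and their part in the result was not tested.

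Top2a encodes the topoisomerase that untangles sister chromosomes. It was at 107, 116 and 113 CPM in the controls and at 68.4, 73.2 and 69.2 CPM with siRNA 1 (log2 fold change -0.69, SE 0.04, adjusted p = 2.87e-08). Kif2c, a kinesin that depolymerises microtubules at kinetochores, was at 13.9, 14.4 and 14.9 CPM against 8.42, 9.22 and 8.34 CPM (log2 fold change -0.73, SE 0.07, adjusted p = 3.68e-06). Both genes showed narrow groups that were far apart. The shugoshin gene Sgo1, which protects the cohesion of sister chromatids, was at 6.62, 6.94 and 7.29 CPM in the controls and at 4.14, 4.21 and 4.19 CPM with siRNA 1 (log2 fold change -0.73, SE 0.08, adjusted p = 1.9e-05). Nuf2, part of the kinetochore complex that binds microtubules, went from 13.7, 14.2 and 14.9 CPM to 8.56, 10.1 and 8.93 CPM (log2 fold change -0.64, SE 0.08, adjusted p = 3.13e-05).

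The S phase and replication list fell in 37 of 48 tested genes and rose in 0, where 12.8% and 14.6% of all genes did. Its median was -0.31 (-0.32 within C13 and -0.29 within D1). Orc1 encodes a subunit of the origin recognition complex and was at 2.56, 2.54 and 2.76 CPM in the controls and at 1.69, 1.55 and 1.44 CPM with siRNA 1 (log2 fold change -0.73, SE 0.13, adjusted p = 0.000819). Uhrf1, which brings the maintenance DNA methyltransferase to new DNA, was at 34.1, 35.98 and 36.05 CPM against 25.6, 25.2 and 23.2 CPM (log2 fold change -0.53, SE 0.05, adjusted p = 4.85e-06). In both genes the groups did not overlap. The replication factor Mcm10 and the ubiquitin ligase adaptor Dtl, which clears licensing factors during replication, fell with log2 fold changes of -0.61 and -0.55. The DNA repair list fell in 22 of 41 tested genes and rose in 1, with a median of -0.26, and the rise was lost without control replicate 1 or 3 or siRNA 1 replicate 2 or 3. Exo1, a nuclease of mismatch repair and end resection (-0.69), Bard1, the partner of BRCA1 (-0.61), and the Fanconi pathway genes Fancd2 (-0.59) and Brip1 (-0.56) were among the falls. On the TPM scale Fancd2 was at -0.06 and not called (limma, adjusted p = 0.677). The count of repair genes that fell was 14 without control replicate 2 and 13 on the TPM scale.

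The promoters of these lists were read from RefSeq (GRCm38.p6, the patch release of mm10), 250 bases before to 50 after each annotated start, for 11007 of the genes tested. Many mitotic promoters carry a cell cycle genes homology region (CHR), here the letters TTTGAA or TTCGAA, and CCAAT boxes, here CCAAT. Replication genes are known for E2F sites, here TTTGGCGC or TTTCGCGC. Either strand was searched, and no motif contains another. The shares are of genes with a promoter. CHR letters were found for 32 of 44 mitosis genes (72.7%) and for 16.5% of all genes, and CCAAT for 70.5% and 42.7%. E2F letters were found for 14 of 40 S phase genes (35%) and for 1.70% of all genes. The median log2 fold change of mitosis genes was -0.52 with CHR letters and -0.49 without. For CCAAT it was -0.52 and -0.48. In S phase genes it was -0.36 with E2F letters and -0.24 without. Over all genes with a promoter the medians were -0.02 with CHR letters and 0.00 without, and -0.04 and 0.00 for E2F. A link between these letters and the fall was not tested. With only the 200 bases before the start, the shares were 34.1% and 10.9% for CHR in mitosis genes and all genes. For E2F they were 17.5% and 1.18% in S phase genes and all genes. A match is a description of letters and not evidence of a bound factor. The sequences below are the 200 bases before the start of genes described above, printed 5′ to 3′ on the strand of the gene, with matches to these motifs on either strand in capitals. Top2a lies at chr11:99024190-99024389 (minus strand), Kif2c at chr4:117178773-117178972 (minus strand), Orc1 at chr4:108579254-108579453 (plus strand), Dtl at chr1:191575545-191575744 (minus strand) and the downstream one of the pair of listed Uhrf1 promoters at chr17:56304113-56304312 (plus strand).
Top2a: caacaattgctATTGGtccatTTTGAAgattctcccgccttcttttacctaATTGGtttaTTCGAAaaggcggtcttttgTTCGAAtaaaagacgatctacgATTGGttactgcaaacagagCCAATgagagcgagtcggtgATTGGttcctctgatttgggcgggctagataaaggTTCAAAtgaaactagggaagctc
Kif2c: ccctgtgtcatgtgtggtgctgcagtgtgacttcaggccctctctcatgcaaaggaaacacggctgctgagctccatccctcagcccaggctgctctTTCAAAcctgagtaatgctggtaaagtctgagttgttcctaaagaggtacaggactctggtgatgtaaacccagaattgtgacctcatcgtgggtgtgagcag
Orc1: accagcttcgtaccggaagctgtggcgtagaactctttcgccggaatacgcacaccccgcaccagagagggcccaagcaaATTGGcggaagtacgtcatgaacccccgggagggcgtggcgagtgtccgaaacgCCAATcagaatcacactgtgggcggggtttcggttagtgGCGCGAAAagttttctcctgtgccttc
Dtl: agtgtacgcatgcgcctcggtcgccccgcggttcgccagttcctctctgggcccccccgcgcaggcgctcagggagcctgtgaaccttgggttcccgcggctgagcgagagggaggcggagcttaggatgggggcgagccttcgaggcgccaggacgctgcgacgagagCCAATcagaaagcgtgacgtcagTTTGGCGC
Uhrf1: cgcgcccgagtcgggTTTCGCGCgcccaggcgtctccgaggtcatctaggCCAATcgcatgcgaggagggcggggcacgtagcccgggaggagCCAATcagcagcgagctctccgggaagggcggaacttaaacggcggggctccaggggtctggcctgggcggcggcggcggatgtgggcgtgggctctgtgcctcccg
Top2a held CHR and CCAAT letters repeatedly, Kif2c held a CHR match only, and Orc1, Dtl and the downstream Uhrf1 promoter held E2F letters together with CCAAT. The same window of Sgo1 and Nuf2 held none of these letters, and those of Mcm10 and of the upstream Uhrf1 promoter held CCAAT only.

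Cell cycle inhibitors and p53 targets were called in both directions. Of 33 tested genes of p53 response and cell cycle arrest, 7 rose (21.2%) and 8 fell (24.2%). Among all genes tested 14.6% rose and 12.8% fell. The median of the list was -0.01 (0.02 without control replicate 2). Cdkn1b, the inhibitor p27, was at 57.6, 52.5 and 57.5 CPM in the controls and at 74.3, 75.4 and 74.6 CPM with siRNA 1 (log2 fold change 0.48, SE 0.08, adjusted p = 0.00243). Its siRNA 1 libraries were nearly equal and above each control. Cdkn2c, the inhibitor p18, and Ccnd2, cyclin D2, fell with log2 fold changes of -0.27 and -0.28 (for Ccnd2, adjusted p = 0.0955 without control replicate 2 and -0.18 with limma on the TPM scale, adjusted p = 0.317), and Ddit4, a stress-induced inhibitor of mTORC1, fell with -0.60. This split rested on single libraries: without control replicate 2 the numbers were 2 and 5, without control replicate 3 the rises numbered 4, without siRNA 1 replicate 2 the falls numbered 5, and without siRNA 1 replicate 3 the rises numbered 4.

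Contractile and calcium-handling genes rose more often than they fell, and a fast myosin heavy chain was among the falls. The sarcomere list had 48 tested genes, of which 21 rose and 4 fell, where 14.6% and 12.8% of all genes did, with a median of 0.17 (0.19 within C13 and 0.14 within D1). Falls of this list numbered 2 without control replicate 1 or 2 or siRNA 1 replicate 3. Myh4, the heavy chain of the fastest fibres, was at 557, 495 and 488 CPM in the controls and at 233, 269 and 285 CPM with siRNA 1 (log2 fold change -0.97, SE 0.10, adjusted p = 0.000688). The highest siRNA 1 library was far below the lowest control. Myh4 lies in a cluster of closely related myosin heavy chain genes that can share reads. Myl2, the slow and cardiac regulatory light chain, went the other way, from 23.4, 20.6 and 25.1 CPM to 41.6, 38.7 and 36.3 CPM (log2 fold change 0.82, SE 0.05, adjusted p = 8.11e-08), also without overlap.

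In the list of 29 genes of excitation-contraction coupling and the neuromuscular junction, 17 rose and 1 fell (2 without control replicate 2), with a median of 0.17. The gene that fell was Casq1, the calcium store protein of fast fibres, at 190.1, 127 and 154 CPM in the controls and 109, 92.0 and 85.1 CPM with siRNA 1 (log2 fold change -0.60, SE 0.10, adjusted p = 0.00555), with an adjusted p of 0.0592 without siRNA 1 replicate 1. Ache, acetylcholinesterase, rose beside its anchor Colq, from 7.51, 6.89 and 7.69 CPM to 12.2, 14.3 and 14.9 CPM (log2 fold change 0.88, SE 0.09, adjusted p = 1.09e-05). Groups of both genes did not overlap. Trdn, which encodes triadin of the calcium release complex, was at 24.5, 22.3 and 22.0 CPM against 29.8, 46.7 and 45.8 CPM (log2 fold change 0.72, SE 0.15, adjusted p = 0.0157), with the C13 library of siRNA 1 closest to the controls. The Trdn call was lost when only control and siRNA 1 libraries were fitted (adjusted p = 0.0811). It was also lost with libraries of the same prefix summed (adjusted p = 0.0947).

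The genes that control myogenesis were called in both directions, beside 14.6% of all genes tested that rose and 12.8% that fell. Of 26 myogenic regulators, 4 rose (2 without control replicate 2) and 8 fell, with a median of -0.06, and the Id genes led the falls. Besides Id3, Id2 was at 12.9, 15.8 and 12.6 CPM in the controls and at 8.52, 11.2 and 10.2 CPM with siRNA 1 (log2 fold change -0.59, SE 0.07, adjusted p = 1.9e-05). Id1 fell from 12.2, 13.4 and 13.8 CPM to 9.75, 8.69 and 9.02 CPM (log2 fold change -0.49, SE 0.07, adjusted p = 0.000149). Neither gene's groups overlapped. Myf6, the myogenic factor of mature fibres, rose with a log2 fold change of 0.56 (adjusted p = 0.11 without control replicate 2). Myog, myogenin, was not called, with a log2 fold change of -0.07. Of 25 fusion and adhesion genes, 3 rose (12%) and 6 fell (24%). Cxcl12, a chemokine that guides myoblasts, was at 0.44 and Kirrel, a nephrin-like adhesion receptor, at -0.28. The falls numbered 5 among the regulators and 2 in the fusion list without the prefix term, and without siRNA 1 replicate 1 the rises of the fusion list numbered 5. In the dystrophin complex and costamere list, 15 of 38 rose and 4 fell (0 without control replicate 2), with Sgcd, delta-sarcoglycan (0.59) and Lama2, the muscle laminin chain (0.37), among the rises, and the muscle protease Capn3 (-0.37, adjusted p = 0.0635 without control replicate 2) among the falls.

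**Figure D3:**
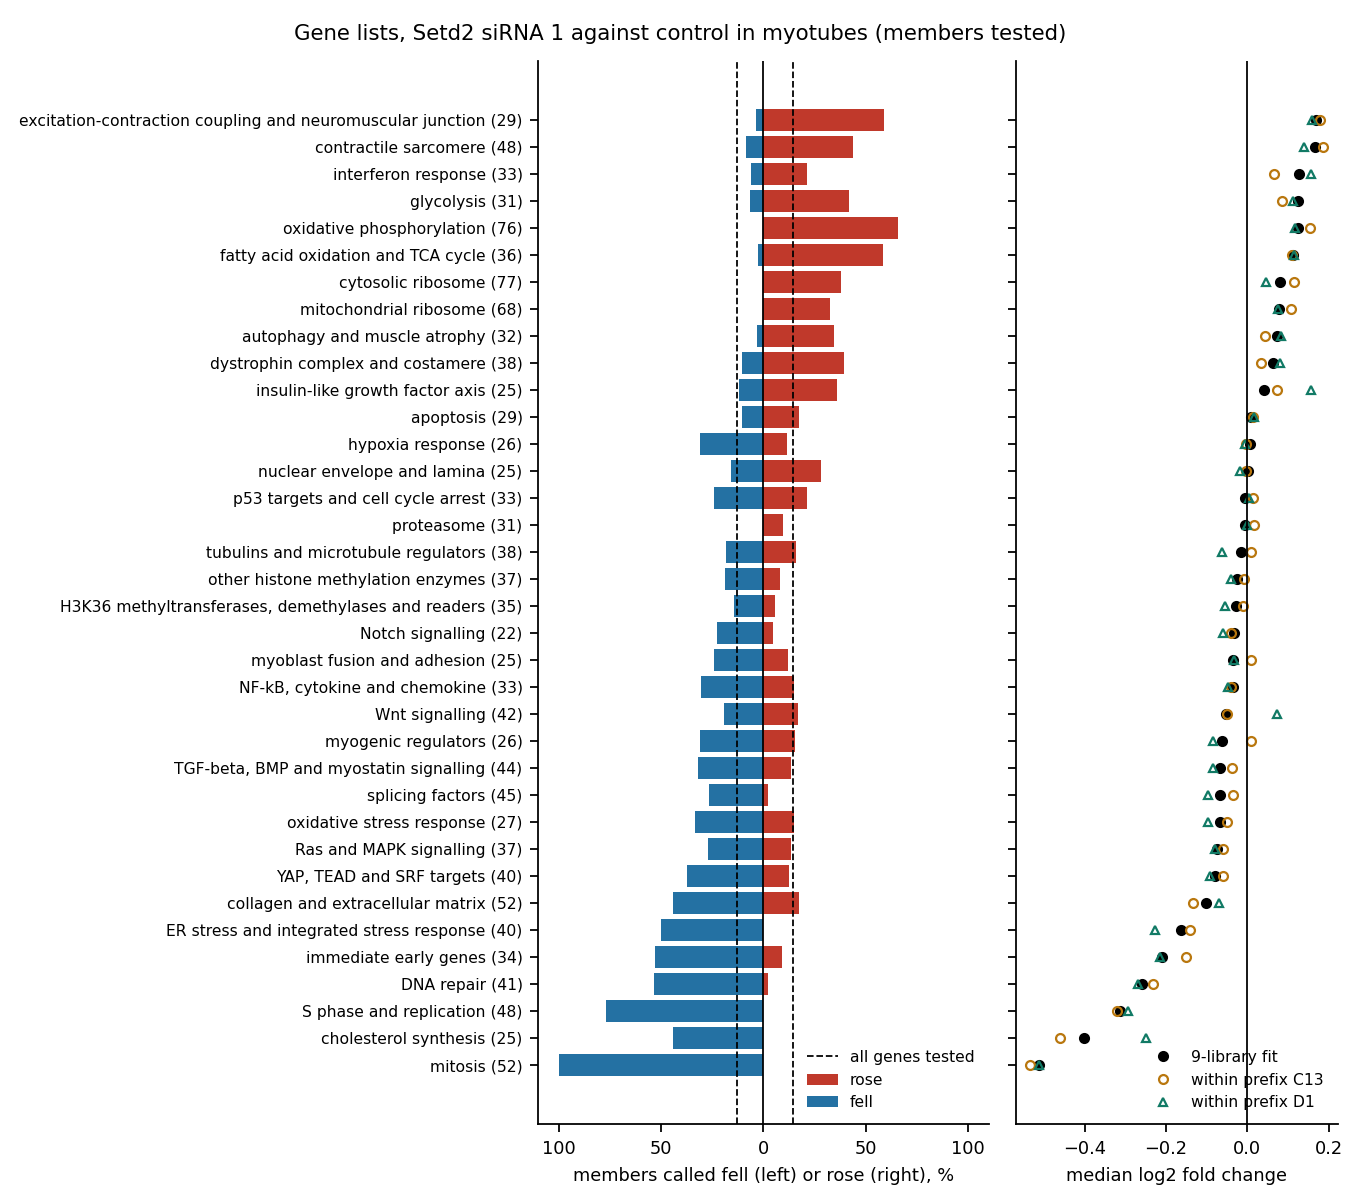
Left, the percent of the tested members of each gene list drawn (number in brackets) that fell (blue, to the left) or rose (red, to the right) with siRNA 1 against control in myotubes, with dashed lines at 12.8% and 14.6% for all genes tested. Lists with fewer tested members than Notch signalling (22) are not drawn. Right, the median log2 fold change of each list in the fit of 9 libraries and within each prefix; mitosis has a median of -0.51 and excitation-contraction coupling one of 0.17.

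In the lists of energy metabolism called rises were more frequent than called falls, and the changes were small. Among all genes tested 14.6% rose and 12.8% fell. Of 76 nuclear genes of oxidative phosphorylation, 50 rose and 0 fell, with a median of 0.12 (0.15 within C13 and 0.12 within D1). Uqcrc2, a core subunit of complex III, was at 111, 107 and 113 CPM in the controls and at 136, 135 and 137 CPM with siRNA 1 (log2 fold change 0.31, SE 0.03, adjusted p = 9.17e-06). Cox7a1, the muscle isoform of a complex IV subunit, rose from 3.70, 2.71 and 3.50 CPM to 5.49, 5.33 and 5.19 CPM (log2 fold change 0.77, SE 0.10, adjusted p = 6.23e-05). Neither gene's groups overlapped. Of 36 genes of fatty acid oxidation and the TCA cycle, 21 rose and 1 fell (2 without control replicate 1 or siRNA 1 replicate 1, 0 without control replicate 2), with a median of 0.11. Pdk2, a kinase that restrains pyruvate oxidation, was at 46.7, 39.0 and 42.2 CPM against 69.4, 62.3 and 64.0 CPM (log2 fold change 0.69, SE 0.05, adjusted p = 4.9e-07), and Ppargc1a, the coactivator PGC-1 alpha of mitochondrial genes, was at 11.7, 7.54 and 10.04 CPM against 14.8, 13.8 and 14.1 CPM (log2 fold change 0.67, SE 0.10, adjusted p = 0.000612).

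Of 31 glycolysis genes, 13 rose and 2 fell, with a median of 0.12, and 1 fell without control replicate 2 or 3 or siRNA 1 replicate 1 or 3. Ldhb, the lactate dehydrogenase subunit of oxidative tissue, was at 18.2, 18.5 and 18.6 CPM in the controls and at 29.0, 35.1 and 35.3 CPM with siRNA 1 (log2 fold change 0.84, SE 0.10, adjusted p = 0.000317). The controls of Ldhb were nearly equal, and all siRNA 1 libraries were above them. Pgam2 and Pygm, the muscle forms of phosphoglycerate mutase and glycogen phosphorylase, rose with log2 fold changes of 0.46 and 0.39. Small rises also marked the ribosome: 29 of 77 cytosolic ribosomal protein genes rose and 0 fell (median 0.08), and 22 of 68 mitochondrial ribosomal protein genes rose and 0 fell (median 0.08). Rpl14, a protein of the large cytosolic subunit, was at 299, 301 and 299 CPM against 365, 365 and 357 CPM (log2 fold change 0.28, SE 0.03, adjusted p = 1.44e-05). Ribosomal protein genes have processed pseudogenes that can share reads.

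The size of these metabolic counts rested on the scale and the libraries. On the TPM scale the rises numbered 24 in oxidative phosphorylation, 6 in fatty acid oxidation and the TCA cycle, 8 in the cytosolic and 6 in the mitochondrial ribosome, and the list medians stayed above 0 (0.08, 0.05, 0.04 and 0.04). Without control replicate 2 the numbers were 34, 12, 24 and 9, without siRNA 1 replicate 1 the ribosome counts were 15 and 13, and for the cytosolic ribosome they were 19 without control replicate 1 and 18 without siRNA 1 replicate 2. The numbers were 33, 10, 10 and 19 without the prefix term. The medians of these lists were positive in each of these settings.

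Among cholesterol synthesis and ER stress genes there were falls and no rises, beside 12.8% of all genes tested that fell and 14.6% that rose. Of 25 cholesterol synthesis genes, 11 fell and 0 rose, with a median of -0.40. The median of the list was -0.46 within C13 and -0.25 within D1. The count depended on single libraries: 22 genes fell without control replicate 2, 5 without control replicate 1, 6 without control replicate 3, 4 without siRNA 1 replicate 1 or replicate 2, 3 without replicate 3, and 0 without the prefix term.

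Of 40 genes of ER stress and the integrated stress response, 20 fell and 0 rose (1 without siRNA 1 replicate 1), with a median of -0.16. Phgdh, the enzyme that opens serine synthesis, was at 154, 201 and 161 CPM in the controls and at 108, 142 and 130.0 CPM with siRNA 1 (log2 fold change -0.55, SE 0.04, adjusted p = 8.55e-07). Mthfd2, a mitochondrial folate enzyme, was at 99.7, 137 and 103 CPM against 72.2, 91.5 and 85.2 CPM (log2 fold change -0.53, SE 0.08, adjusted p = 0.00128). In both, control replicate 2 was the highest library and siRNA 1 replicate 1 the lowest. The cystine transporter gene Slc7a11 fell with -0.39. Among 27 genes of the oxidative stress response 4 rose (14.8%) and 9 fell (33.3%), where 14.6% and 12.8% of all genes tested did. Fth1, the ferritin heavy chain, was at 1075, 1146 and 1109.5 CPM in the controls and 1380.3, 1493 and 1483 CPM with siRNA 1 (log2 fold change 0.35, SE 0.04, adjusted p = 8.15e-06). The number that fell was 5 without control replicate 2 and 4 without the prefix term, and the number that rose was 2 without siRNA 1 replicate 2.

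Degradation genes of muscle rose more often than they fell, where 14.6% of all genes tested rose and 12.8% fell. In the autophagy and atrophy list 11 of 32 rose and 1 fell (0 without control replicate 2), with a median of 0.07. Fbxo32, the ubiquitin ligase atrogin-1, was at 101, 95.7 and 97.0 CPM in the controls and at 127, 132 and 133 CPM with siRNA 1 (log2 fold change 0.45, SE 0.06, adjusted p = 0.000376), and Trim63, the ligase MuRF1, went from 58.4, 57.7 and 56.1 CPM to 70.5, 73.7 and 75.0 CPM (log2 fold change 0.35, SE 0.04, adjusted p = 1.83e-05). No siRNA 1 library of either gene reached down to a control. The lysosomal protease gene Ctsb rose with 0.30. Of 31 proteasome subunit genes, 3 rose and 0 fell, with a median of -0.01 (0.01 without control replicate 2), and 4 fell without siRNA 1 replicate 1 and 1 without control replicate 3.

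Matrix genes and targets of mechanical signalling fell more often than they rose, where 12.8% of all genes tested fell and 14.6% rose. Of 52 collagen and matrix genes, 23 fell and 9 rose, with a median of -0.10. Col5a3, a fibrillar collagen chain, was at 206, 170.4 and 219.8 CPM in the controls and at 138, 109.8 and 116.7 CPM with siRNA 1 (log2 fold change -0.60, SE 0.04, adjusted p = 1.49e-07). Fbln5, an organiser of elastic fibres, fell from 33.6, 30.3 and 36.4 CPM to 23.7, 20.8 and 17.9 CPM (log2 fold change -0.62, SE 0.06, adjusted p = 5.04e-06). In both, every siRNA 1 library was below every control. Of 40 targets of YAP, TEAD and SRF, factors that respond to cell tension and actin, 15 fell and 5 rose, with a median of -0.08. Ankrd1, a stretch-responsive titin-binding protein, was at 734, 891 and 718 CPM against 590.3, 651 and 661 CPM (log2 fold change -0.37, SE 0.04, adjusted p = 5.67e-06). Flna, filamin A, was at 1356, 1373 and 1410.3 CPM against 1035, 1098 and 1076 CPM (log2 fold change -0.37, SE 0.04, adjusted p = 5.04e-06), and Actg2, smooth muscle gamma actin, was at 22.8, 18.2 and 25.8 CPM against 15.7, 9.90 and 9.64 CPM (log2 fold change -0.78, SE 0.08, adjusted p = 9.17e-06). The 3 siRNA 1 libraries of these genes lay below the controls. Without the prefix term 13 matrix genes fell, and with libraries of the same prefix summed 9 of the YAP, TEAD and SRF targets fell. The rises of these targets numbered 2 to 4 when single libraries were left out, with 3 without control replicate 3, 2 without siRNA 1 replicate 1 and 3 without siRNA 1 replicate 3.

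Of 44 genes of TGF-beta, BMP and myostatin signalling, 14 fell and 6 rose (median -0.07), where 12.8% and 14.6% of all genes tested did. Several of them belong to the lists above. Gdf5, a BMP-family ligand, was at 14.7, 15.8 and 14.2 CPM in the controls and at 9.15, 10.7 and 9.71 CPM with siRNA 1 (log2 fold change -0.68, SE 0.07, adjusted p = 9.62e-06), and every siRNA 1 library was below every control. Of 34 immediate early genes, 18 fell and 3 rose, with a median of -0.21 (-0.15 within C13 and -0.22 within D1). Egr3, a transcription factor of early growth responses, was at 47.7, 59.5 and 49.6 CPM against 28.6, 32.4 and 30.2 CPM (log2 fold change -0.86, SE 0.05, adjusted p = 8.11e-08), while the nuclear receptor gene Nr4a3 rose from 4.50, 3.85 and 4.13 CPM to 8.69, 5.15 and 5.43 CPM (log2 fold change 0.78, SE 0.12, adjusted p = 0.00041). The Egr3 groups were far apart, and the highest siRNA 1 library of Nr4a3 carried C13. On the TPM scale Nr4a3 was at 0.34 and not called (limma, adjusted p = 0.115). Myc fell with -0.57. Falls numbered 8 among the immediate early genes without the prefix term, and without siRNA 1 replicate 1 the rises numbered 6.

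Other signalling lists held falls and rises, beside 14.6% of all genes tested that rose and 12.8% that fell. Of 25 genes of the insulin-like growth factor axis, 9 rose and 3 fell, and the rises numbered 4 without control replicate 2. Igfbp5, a binding protein that Pappa cuts, was at 2164, 2266 and 2063 CPM in the controls and at 2590.2, 3337 and 3364 CPM with siRNA 1 (log2 fold change 0.45, SE 0.06, adjusted p = 7.32e-05), while Igfbp2, another binding protein, fell from 238, 253 and 265 CPM to 136, 151 and 142 CPM (log2 fold change -0.78, SE 0.15, adjusted p = 0.014). Its adjusted p was 0.105 without control replicate 2 and 0.0629 without siRNA 1 replicate 1. The groups of these binding proteins moved apart in opposite directions. In Wnt signalling 7 of 42 rose and 8 fell, with Lef1, a transcription factor of the pathway, at -0.80 and the receptor Fzd1 at -0.40. In Notch signalling 1 of 22 rose and 5 fell, with the ligand Jag1 at -0.49 and the target Hey1 at -0.37. In Ras and MAPK signalling 5 of 37 rose and 10 fell, with the ErbB ligand Nrg1 at -0.67 and the feedback inhibitors Spry4 and Dusp4 at -0.53 and -0.49. Without control replicate 2 the rises numbered 3 in the Wnt list and 2 in the Ras list and the falls 3 in the Notch list, without siRNA 1 replicate 1 the rises of the Notch list numbered 2, and without siRNA 1 replicate 3 the Wnt falls numbered 5. Without the prefix term the falls of the Ras list numbered 4 and those of the Notch list 2.

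Of 33 cytokine and NF-kB genes, 5 rose (15.2%) and 10 fell (30.3%), where 14.6% and 12.8% of all genes tested did. Il15, a cytokine made by muscle, was at 2.72, 1.92 and 2.47 CPM in the controls and at 4.41, 4.73 and 4.92 CPM with siRNA 1 (log2 fold change 1.08, SE 0.14, adjusted p = 4.1e-05), and Ptgs2, the inducible prostaglandin synthase, fell with -0.69. The number that fell was 6 without control replicate 2. Of 33 interferon response genes, 7 rose and 2 fell, with a median of 0.13, and each library left out but control replicate 1 took the falls to 1 or 0 (0 without control replicate 2 or siRNA 1 replicate 1). Gbp2, an interferon-induced guanylate-binding protein, was near the lower end of what was tested at 0.891, 0.873 and 1.07 CPM against 1.61, 2.03 and 1.82 CPM (log2 fold change 0.93, SE 0.18, adjusted p = 0.00146), and Xaf1, a pro-apoptotic interferon target, rose with 0.61. On the TPM scale 3 genes of the interferon list rose. Of 26 hypoxia genes, 3 rose (11.5%) and 8 fell (30.8%), with Epas1, the factor HIF-2 alpha, at 1.07 and Vegfc, a lymphatic growth factor, at -0.68.

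Chromatin lists held called genes in both directions, beside 14.6% of all genes that rose and 12.8% that fell. Of 35 genes of H3K36 methyltransferases, demethylases and readers, 2 rose (5.71%) and 5 fell (14.3%), Setd2 among them, with a median of -0.03. Dnmt3a, a DNA methyltransferase that reads H3K36 methylation, was at 35.3, 36.1 and 37.3 CPM in the controls and at 44.9, 39.6 and 41.5 CPM with siRNA 1 (log2 fold change 0.25, SE 0.05, adjusted p = 0.000917). Msh6, a mismatch repair protein that binds trimethylated H3K36, went from 28.9, 30.4 and 31.6 CPM to 25.2, 25.6 and 25.0 CPM (log2 fold change -0.26, SE 0.04, adjusted p = 0.000565). Setd3, which encodes an actin histidine methyltransferase, was at 104.9, 99.6 and 98.0 CPM against 119, 114 and 119 CPM (log2 fold change 0.24, SE 0.03, adjusted p = 0.000139). The groups of these genes did not overlap, and each log2 change was smaller in size than that of Setd2. Of 37 other histone methylation enzymes, 3 rose (8.11%) and 7 fell (18.9%), with Ezh2, the enzyme of Polycomb repression, at -0.29 (-0.12 with limma on the TPM scale, adjusted p = 0.284). The rises numbered 0 without siRNA 1 replicate 1 or 3 and 1 without any single control. The falls of this list numbered 4 without control replicate 1 or siRNA 1 replicate 2 and 3 without control replicate 2 or siRNA 1 replicate 3, and those of the H3K36 list 3 without control replicate 2.

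Of 45 splicing factors, 1 rose and 12 fell, where 14.6% and 12.8% of all genes tested did, with a median of -0.07. The rise was Rbfox1, a splicing regulator of muscle and neurons, at 24.2, 19.6 and 21.7 CPM in the controls and 29.1, 34.0 and 34.1 CPM with siRNA 1 (log2 fold change 0.56, SE 0.09, adjusted p = 0.00131). Ptbp1, a repressor of muscle exons, fell with -0.25. The number that fell was 4 without control replicate 2, 7 without siRNA 1 replicate 2 and 19 on the TPM scale. It was 7 without the prefix term. In the tubulin and microtubule list 6 of 38 rose (15.8%) and 7 fell (18.4%), not far from the shares over all genes. These numbers were 3 and 3 without the prefix term. Tubb3 was at -0.61 (adjusted p = 0.109 without control replicate 2 and 0.0898 without siRNA 1 replicate 1). Stmn1, a tubulin-sequestering protein, was at -0.56, against Map2 at 0.45. In the nuclear envelope list 7 of 25 rose and 4 fell, with Lmnb1, lamin B1, at -0.32, and on the TPM scale 3 rose. Without siRNA 1 replicate 3 the falls of this list numbered 2.

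By gene structure, where 16.8% of all protein-coding genes tested rose and 14.8% fell, protein-coding genes under 5 kb rose in 19.9% and fell in 9.48%, with a median of 0.05. Those over 300 kb rose in 24.4% and fell in 16.1%, with a median of 0.04, and the classes between these had medians from -0.02 to 0.00. Genes of 1 exon rose in 8.83% and fell in 12.9%, while genes of over 20 exons rose in 16.2% and fell in 18.1%. The median level was 3.38 CPM for genes of 1 exon and 51.8 CPM for genes of over 20 exons, and the power to call a change moves with the level.

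Fibroblast markers were abundant, at sums of 2334, 1930.1 and 2407 CPM in the controls and 2372, 2028 and 2047 CPM with siRNA 1, most of it from the collagen genes Col3a1 and Col1a1, Gsn, Tcf4 and Postn. Of 12 tested genes of the list, 6 rose and 1 fell, the fall being Postn, and Dcn, the matrix proteoglycan decorin, was at 89.5, 83.9 and 89.7 CPM in the controls and 127, 115 and 124 CPM with siRNA 1 (log2 fold change 0.52, SE 0.05, adjusted p = 1.52e-05). The defining fibroblast markers Pdgfra, Thy1, Dcn, Lum and Dpt summed to between 93.2 and 99.7 CPM in the controls and to between 127 and 137 CPM with siRNA 1, most of it Dcn, with Thy1 and Lum too low to be tested. Of 7 tested osteoblast and chondrocyte genes 4 fell and 0 rose, with Spp1, osteopontin, at 1088, 1345 and 1176 CPM against 677, 887 and 829 CPM (log2 fold change -0.64, SE 0.11, adjusted p = 0.00683, and adjusted p = 0.0633 without control replicate 2). Smooth muscle markers (Myh11, Smtn, Cnn1 and Actg2) summed to between 183 and 194 CPM in the controls and to between 190.2 and 194.5 CPM with siRNA 1. Most of this sum was Smtn, which rose with 0.10 (adjusted p = 0.358 without control replicate 2). Actg2 fell with -0.78 and Cnn1, at most at 0.628 CPM, with -1.24, and Myh11 was not called. In the list of reserve cell and quiescence markers, the undifferentiated cells left in such cultures, 4 of 14 rose and 4 fell (2 without siRNA 1 replicate 2 or 3), with Cd34 at 0.55. Beside these lists, 14.6% of all genes tested rose and 12.8% fell. The part of these cells in the results above was not tested.

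The 2 siRNAs were set against each other directly in myotubes, since comparisons of each with the same controls share those libraries. This contrast gives the controls no weight. They were still in the fit, so its scaling, filter, estimate of spread and prefix term drew on them. Of 16097 genes tested, 4030 (25%) differed between siRNA 1 and siRNA 2, 2111 higher and 1919 lower with siRNA 1 (13.1% and 11.9%). Setd2 itself was at 38.2, 34.8 and 33.6 CPM with siRNA 2 and was not called different between the siRNAs (log2 difference 0.32, SE 0.14, adjusted p = 0.186), which does not show equal levels. Ccn2 was at 123, 123 and 123 CPM with siRNA 2, near the controls, and differed from siRNA 1 (log2 difference -1.33, SE 0.08, adjusted p = 2.78e-05). Postn was at 192, 113 and 112 CPM with siRNA 2, where again the C13 library was the highest (log2 difference -0.97, SE 0.04, adjusted p = 3.81e-09). No siRNA 2 library of Ccn2 or Postn reached down to the siRNA 1 range.

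The genes most in excess with siRNA 1 over siRNA 2 were of several kinds. Deptor, an inhibitor of mTOR, was at 468, 490.5 and 440.0 CPM in the controls, 371, 390.0 and 394 CPM with siRNA 1 and 140.1, 119 and 121 CPM with siRNA 2 (log2 difference 1.60, SE 0.06, adjusted p = 2.46e-07), so both siRNAs lay below the controls and siRNA 2 lay lowest. Sema3c, a secreted semaphorin, was at 94.6, 101 and 94.0 CPM, 126, 126 and 134 CPM and 52.9, 50.03 and 48.7 CPM in that order (log2 difference 1.35, SE 0.04, adjusted p = 2.66e-11), so the controls lay between the siRNAs. Crym was at 4.02, 4.19 and 4.26 CPM with siRNA 2, close to its controls (log2 difference 1.24, SE 0.09, adjusted p = 1.81e-07). Myl2 was at 19.02, 16.2 and 17.9 CPM with siRNA 2, below each of its controls (log2 difference 1.14, SE 0.05, adjusted p = 2.98e-09), and the other leading genes were the palmitoyltransferase gene Zdhhc4 (1.31) and Serpinb9b (1.15), a serpin with close paralogs that can share reads.

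Among the genes lower with siRNA 1 were several that lay below the controls with siRNA 1 and above them with siRNA 2. Ccn3, a matricellular relative of Ccn2, was at 62.6, 68.9 and 68.5 CPM in the controls, 49.4, 44.5 and 45.5 CPM with siRNA 1 and 150.0, 168 and 159 CPM with siRNA 2 (log2 difference -1.77, SE 0.05, adjusted p = 3.19e-09). Tmc3, a transmembrane channel-like protein, was at 54.7, 62.9 and 55.7 CPM, 30.9, 31.4 and 30.6 CPM and 80.4, 88.6 and 86.5 CPM in that order (log2 difference -1.46, SE 0.04, adjusted p = 9.64e-12). Pvalb, the calcium buffer parvalbumin of fast fibres, was at 15.0, 10.8 and 12.2 CPM, 8.90, 7.20 and 7.43 CPM and 32.6, 23.5 and 22.0 CPM (log2 difference -1.72, SE 0.08, adjusted p = 4.66e-09). In each of these the 3 groups were separate, with the controls in the middle. Cdkn1c, the cell cycle inhibitor p57, was at 27.1, 16.3 and 26.8 CPM in the controls, where siRNA 1 was not called, at 38.6, 26.4 and 26.3 CPM with siRNA 1, and at 109, 132 and 122 CPM with siRNA 2 (log2 difference -2.02, SE 0.21, adjusted p = 0.00186). Col23a1, a transmembrane collagen, and Prelp, a matrix proteoglycan, were lower with siRNA 1 by log2 differences of -2.13 and -1.46.

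**Figure D4:**
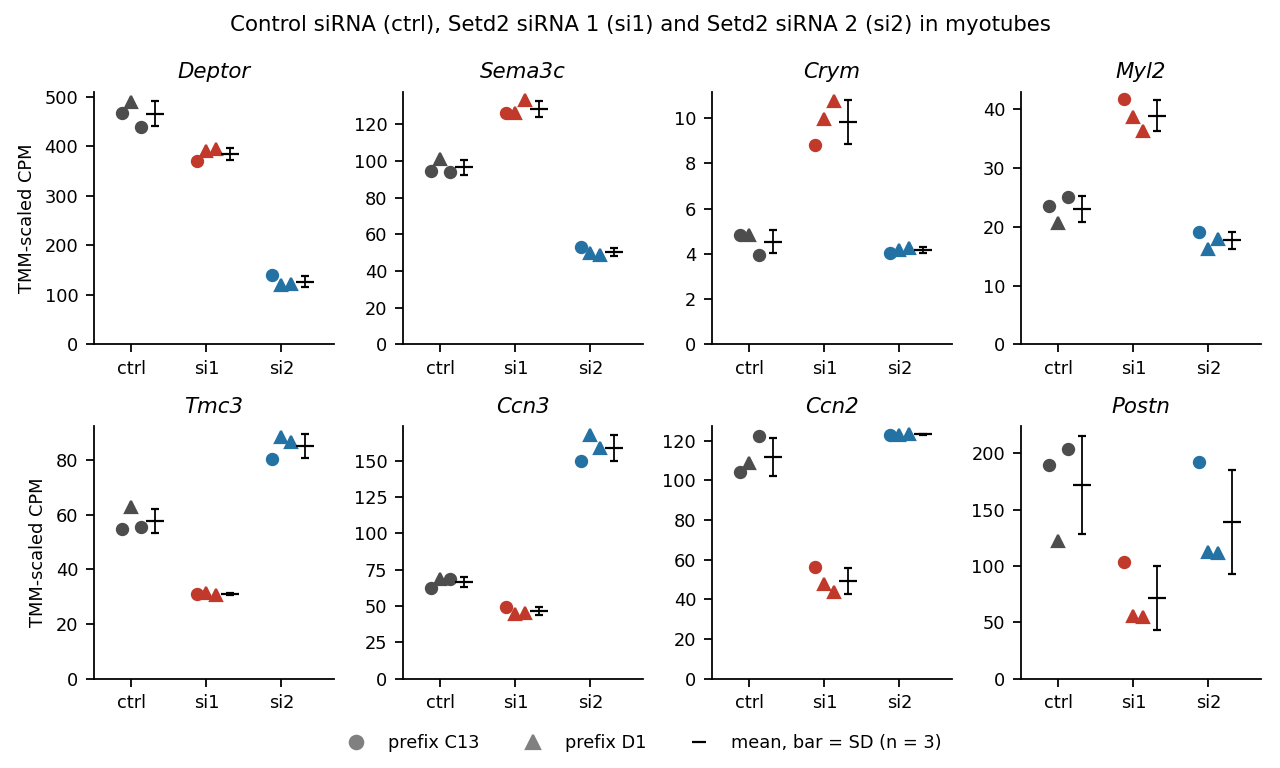
Level of 8 genes (TMM-scaled CPM, vertical axes from 0) in the control, siRNA 1 and siRNA 2 myotube libraries, with circles for prefix C13, triangles for prefix D1 and the mean with its SD beside each group of 3. Ccn2 lies between 43.8 and 56.3 CPM with siRNA 1 and at 123 CPM in each siRNA 2 library, and Ccn3 and Tmc3 lie on opposite sides of the controls with the 2 siRNAs.

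By list, oxidative phosphorylation genes were lower with siRNA 1 than with siRNA 2 in 53 of 76 and higher in 3, with a median difference of -0.18, and fatty acid oxidation and TCA cycle genes were lower in 21 of 36 and higher in 2. Mitosis genes were lower with siRNA 1 in 8 of 52 and higher in 0, with a median of -0.09. S phase genes were higher in 3 and lower in 4 of 48. Over all genes tested, 13.1% were higher and 11.9% lower with siRNA 1 than with siRNA 2. Matrix genes were lower with siRNA 1 in 25 of 52 and higher in 7, and YAP, TEAD and SRF targets were higher in 15 of 40 and lower in 2. Myogenic regulators were lower in 13 of 26 and higher in 1. Ppargc1a was at 31.9, 22.5 and 25.6 CPM with siRNA 2 (log2 difference -0.89, SE 0.09, adjusted p = 3.66e-05), above every siRNA 1 library, and Ache at 26.7, 31.7 and 27.5 CPM (log2 difference -1.05, SE 0.07, adjusted p = 5.09e-07).

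The effect of siRNA 1 was then set beside its effect in undifferentiated myoblasts, whose 3 control and 3 siRNA 1 libraries are separate from those of the myotubes. In myoblasts 4914 of 15836 genes tested were called (31%), 2741 up and 2173 down (17.3% and 13.7%). In myoblasts, sequence of ribosomal RNA type made up 1.20% to 1.36% of control counts and 3.56% to 3.91% of siRNA 1 counts, and its part in the myoblast values was not tested. Of 14926 genes tested in both stages, 736 rose in both, which is 34.2% of the myotube rises and 27.0% of the myoblast rises, and 565 fell in both, 28.4% and 26.6%. Opposite calls were made for 413 genes that fell in myotubes and rose in myoblasts and for 183 that rose in myotubes and fell in myoblasts. The difference of the effect between stages, tested over both stages, was called in 3622 of 17234 genes (21%), with 1566 more positive in myotubes (9.09%) and 2056 more negative (11.9%).

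Cell cycle genes separated the stages. All 52 mitosis genes had an effect that was more negative in myotubes, and in myoblasts 22 of them rose and 3 fell, with a median of 0.05. From control to siRNA 1, Top2a went from 790.1 ± 1.59 CPM to 714 ± 25.3 CPM in myoblasts and from 115 ± 4.87 CPM to 71.8 ± 2.78 CPM in myotubes, means with SD over 3 libraries on a common scale (difference -0.52, SE 0.05, adjusted p = 2.91e-08). Dtl went from 56.7 ± 2.85 CPM to 64.9 ± 0.170 CPM in myoblasts and from 13.4 ± 0.586 CPM to 8.94 ± 1.18 CPM in myotubes (difference -0.76, SE 0.08, adjusted p = 1.14e-07). Myoblasts thus held several times the level of these genes. Of 48 S phase genes, 35 were more negative in myotubes and 1 more positive, and of 41 repair genes 22 were more negative. Pappa and Setd2 moved alike in direction, with log2 fold changes of -1.76 and -1.46 in myoblasts and stage differences that were not called (difference -0.04, SE 0.20, adjusted p = 0.942 and difference 0.32, SE 0.20, adjusted p = 0.32).

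Matrix, tension and stress genes also differed between the stages, where 11.9% of all genes tested were more negative in myotubes and 9.09% more positive. Of 40 YAP, TEAD and SRF targets, 24 were more negative in myotubes and 1 more positive, and in myoblasts 27 of 39 rose and 6 fell. Ccn2 went from 32.9 ± 10.3 CPM to 41.7 ± 13.8 CPM in myoblasts, where the spread within groups was wide, and from 114 ± 9.70 CPM to 50.3 ± 6.47 CPM in myotubes (difference -1.77, SE 0.11, adjusted p = 5.71e-07). Flna went from 2844 ± 55.5 CPM to 3078 ± 118 CPM in myoblasts and from 1410.2 ± 27.5 CPM to 1092 ± 34.9 CPM in myotubes (difference -0.51, SE 0.04, adjusted p = 5.91e-09). Of 40 genes of ER stress and the integrated stress response, 26 were more negative in myotubes and 0 more positive, and in myoblasts 22 rose and 2 fell. Of 52 matrix genes, 24 were more negative and 6 more positive, with Postn from 3.71 ± 0.626 CPM to 5.64 ± 0.633 CPM in myoblasts and from 175 ± 44.5 CPM to 73.0 ± 28.5 CPM in myotubes (difference -1.51, SE 0.11, adjusted p = 1.51e-08). Oxidative phosphorylation went the other way, with 45 of 76 more positive in myotubes and 2 more negative, and in myoblasts 7 of 74 rose and 8 fell.

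**Figure D5:**
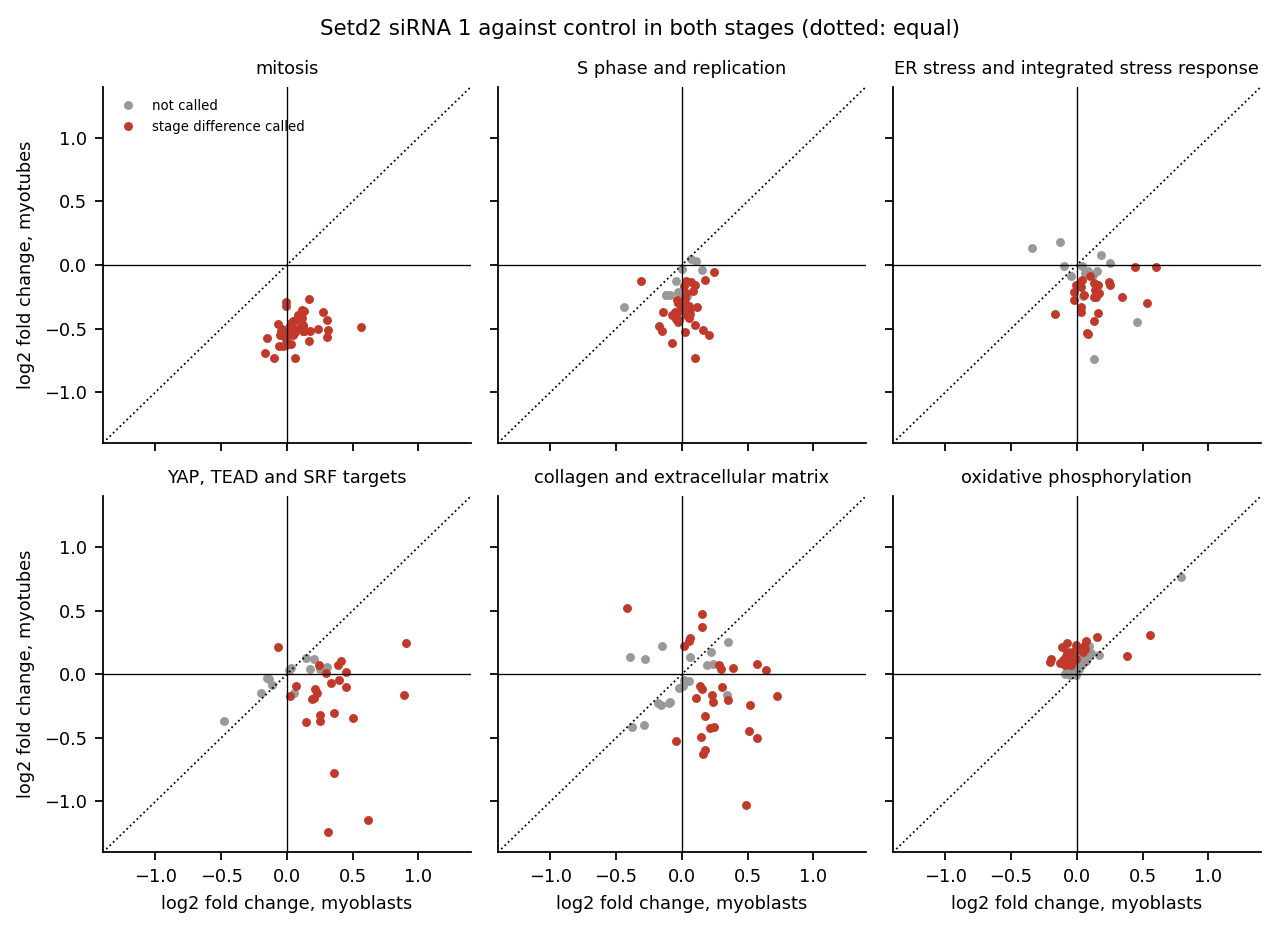
For 6 gene lists, each point is 1 gene tested in both stages, with the log2 fold change of siRNA 1 over control in myoblasts on the horizontal axis and in myotubes on the vertical axis. Red points have a called difference between stages and the dotted line marks equal effects; all 52 mitosis genes lie below 0 on the vertical axis and under the dotted line.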

How the data were processed

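PolyA RNA-seq of stretched C2C12 cells was analysed from 2 deposited tables of transcripts, 1 for myotubes and 1 for myoblasts. Per the file headers, the authors deposited, for each library, estimated counts (NumReads) and TPM per transcript. No label or header names the quantifier, and mm10 and DESeq2 appear without roles in the submitters' processing notes. Of 115088 transcripts, 114200 matched GENCODE M21 and were summed to 47311 genes. Counts of the 888 unmatched transcripts (at most 0.1734% of a myotube library) stayed out. A further 2 columns, from 1 myoblast library whose name holds SETD3, matched no sample and were not used.

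Gene sums were rounded and tested with edgeR 4.0.16 in R 4.3.3 (quasi-likelihood, robust, TMM scaling, filterByExpr with a minimum count of 10) on all 9 myotube libraries with group and name prefix as terms and 5 residual degrees of freedom. Myoblasts were fitted likewise, and the stage difference was tested over both stages. Benjamini-Hochberg adjusted p-values run over all genes tested, 2-sided, with calls under 0.05; every adjusted p in the text is from this test unless another tool is named. Within-prefix values are differences of mean log2 CPM. Alternatives were DESeq2 1.42.0, limma 3.58.1 on log2(TPM + 1), RLE scaling, no filter, no prefix term, the replicate number as a block, summed libraries of 1 group and prefix, 6 libraries only, and each library left out. On simulated counts for the myotube comparison, 78.6% of log2 changes of 0.5 and 84.8% of those of 1 were called, with 11 false calls among 15853 genes. The simulated counts had 200 changed genes and no prefix or siRNA 2 effect. They check the fit and do not give the rate of false calls in the real libraries.

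The comparison and the 45 gene lists were chosen with earlier results of these data known, so a list's direction is not independent evidence. Named genes are Setd2, the 12 largest called rises and falls among protein-coding genes with a mean of at least 5 CPM, groups that do not overlap and the same sign within both prefixes, up to 4 such genes per list at 1 CPM or more, and the 6 largest each way against siRNA 2 and between stages. Genes given as markers are named outside this rule. Some genes that the rule names are not reported here.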

Additional observations from a re-analysis of the deposited data

Results flagged for a closer look

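The size of the siRNA 1 effect differed between myotubes and myoblasts by a test of the difference itself in 3622 genes. That was 21% of all genes tested. Of the 170 genes named by rule that were called in myotubes, 101 had such a difference. These genes were chosen for their effects in the same myotube libraries, so their higher share is not an independent result. The largest positive differences, in log2, were those of Best3, a bestrophin anion channel (1.78), Cdh1, E-cadherin (1.64), Pdk4, a pyruvate dehydrogenase kinase (1.56), Foxq1, a forkhead factor (1.42), Rnf144b, a ubiquitin ligase (1.32), and Sbk2, a kinase of the SH3-binding domain family (1.27). Pdk4 had a mean of 32.9 CPM in control and 13.1 CPM in siRNA 1 myoblasts, and of 19.1 CPM in control and 22.5 CPM in siRNA 1 myotubes. Rnf144b went from 30.7 to 22.9 CPM in myoblasts and from 3.26 to 6.02 CPM in myotubes. Best3 and Sbk2 were under 1 CPM in every myoblast group, and both rested on single libraries: Best3 was at 1.06 (adjusted p = 0.168) without myoblast siRNA 1 replicate 3 and at 2.63 without myoblast control replicate 1, and Sbk2 at 0.72 (adjusted p = 0.596) without that control. Sbk2 also lost its call without myoblast siRNA 1 replicate 1 or 2 (adjusted p = 0.0696 and 0.0517), on the TPM scale (0.26, limma, adjusted p = 0.183) and without the prefix term (0.67, adjusted p = 0.644), and Best3 without the prefix term and with summed libraries (adjusted p = 0.109 and 0.0607). With the replicate block the adjusted p was 0.0873 for Best3 and 0.327 for Sbk2. Neither Cdh1 nor Foxq1 was called in myotubes.

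The largest negative differences were those of Stmn4, a stathmin of microtubules (-1.92), Ccn2 (-1.77), Siglecg, a sialic acid binding lectin (-1.58), Ptprn, a receptor-type phosphatase of secretory granules (-1.54), a gene listed as Igsf5, a symbol that more than 1 annotated gene carries (-1.52, but -0.03 on the TPM scale, limma, adjusted p = 0.909), and Postn (-1.51). Stmn4 went from 9.43 to 19.2 CPM in myoblasts and from 2.53 to 1.21 CPM in myotubes, so it was called in opposite directions. Siglecg went from 5.70 to 11.02 CPM in myoblasts and from 3.01 to 1.88 CPM in myotubes.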

How the results depend on the processing

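With libraries of 1 group and prefix summed, 2487 genes were called against control in myotubes, 1979 against siRNA 2 and 2367 for the stage difference. Without the prefix term 2797 were called in myoblasts and 2234 for the stage difference. Leaving out 1 library gave 2591 (without control replicate 2) to 3942 calls in myotubes, 2922 to 4155 against siRNA 2, 3577 to 4446 in myoblasts and 2826 to 3507 for the stage difference. The cause was not tested, beyond the smaller number of libraries. DESeq2 called 3555 genes in myotubes. On the TPM scale rises were 27.3% of the myoblast calls (55.8% with counts), and 63.6% of the calls against siRNA 2 were higher with siRNA 1 (52.4% with counts).

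With the replicate number as a block in place of the prefix (replicate block), 3738 genes were called in myotubes, 3177 against siRNA 2, 3920 in myoblasts and 2916 for the stage difference. The numbers do not pair the libraries: deviations of same-numbered libraries correlated at -0.101 to 0.142.

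Of 194 gene results with a call, 128 kept it in every setting, 66 lost it in at least 1 and none reversed. For most of these results the naming rule required the same sign within both prefixes, so no reversal could appear there. Without the prefix term 34 lost it, among them Postn (-1.26), Cmya5 (0.90), Asb2 (0.83), Kcnj12 (-0.81), Id2, Myf6, Ppargc1a, Phgdh, Mthfd2, Ankrd1, Nr4a3, Jag1, Spry4 and Dusp4. On the TPM scale 17 lost it, among them Fancd2 (-0.06), Ccnd2 (-0.18), Ezh2 (-0.12), Nr4a3 (0.34) and Myf6 (0.42), and with summed libraries 27 did, among them Galnt5, Trdn, Myf6, Ccnd2 and Igfbp2 against control and Cdkn1c and Prelp against siRNA 2. Of 46 list medians 36 moved on the TPM scale by more than the spread between libraries. The 6 libraries alone give no value against siRNA 2. Depth limits calls for genes near 1 CPM.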
